A study of Mus musculus with 18 samples.

Results

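The comparison set uninduced cells of FOXS1 KO clone 1 against uninduced wild type (WT) cells, 3 libraries of each, out of 18 libraries in the series. All genes of the count table were considered, and a positive change means a higher level in the clone. The cells are the mouse embryonic fibroblast line 10T1/2 (CH310T1/2 in the labels, where the cell type is given as mesenchymal stem cells), grown in DMEM with 10% FBS to 2 days past confluence, and the uninduced cultures carry the treatment label Control. The other 4 groups are FOXS1 KO clone 2 uninduced, and WT, clone 1 and clone 2 after 1 nM TGF-β1 for 12 h followed by 48 h of DMII, an adipogenic mix of dexamethasone, IBMX, insulin and indomethacin. Clone 1 was grown from a single cell after CRISPR-Cas9 editing with a pair of guides in the only exon of Foxs1 and puromycin selection, whereas the labels give WT no editing step. What came with the edit and what came with the choice of 1 cell cannot be told apart from these 6 libraries, and the labels do not say that the replicates came from separate cultures, so that p-values measure the spread between libraries.

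FOXS1 is a forkhead transcription factor, a family that binds DNA through a winged helix domain. It is known from pericytes and other mesenchymal cells around vessels, and 10T1/2 cells are used to study the choice of such mesenchymal cells between adipocyte, myofibroblast, bone, cartilage and muscle fates. Adipocyte commitment runs through C/EBP factors and PPARγ, while TGF-β signaling favors contractile and matrix genes. The comparison asks how far the clone already stood from WT before either program was induced.

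Libraries held 15.6 to 23.7 M counts in WT and 16.9 to 17.8 M in clone 1 (M, 1e6 counts), and levels are CPM, counts scaled to the depth of each library with TMM factors. A total of 14317 of 54532 genes passed the filter on low counts and were tested. A gene was called at an adjusted p below 0.05 and a change of more than 2-fold. WT replicate 1 stood apart from the other WT libraries. Its correlation with them was 0.963 and 0.969, against 0.983 between the other two and 0.987 to 0.991 within clone 1. The first principal component of the 6 libraries held 75.1% of the variance and separated clone 1 from WT, and the second (12.9%) separated WT replicate 1. Of 12 fibroblast markers 11 were tested, and their summed level was 37550 to 40070 CPM in WT and 34590 to 35510 CPM in clone 1. Defining markers of endothelial (Pecam1, Cdh5, Kdr), blood (Ptprc) and epithelial (Epcam) cells did not pass the filter.

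In clone 1, 905 genes were higher and 1250 lower than in WT, which is 6.32% and 8.73% of the genes tested and 15.1% together. Without WT replicate 1 the counts were 926 and 1297. The median log2 fold change over all tested genes was -0.008. The falls were the deeper ones, with a median log2 fold change of -2.36 against 1.76 for the rises. Changes beyond 16-fold were fitted for 360 of the lower and 121 of the higher genes, and the fitted value of a gene without counts in 1 group depends on the prior count. By library, 877 of the higher genes and 1171 of the lower genes had no overlap between the groups, whereas 27.7% of all tested genes lay wholly above WT in clone 1 and 28.0% wholly below. Transcription factor genes leaned to the lower side, since 112 of 938 were lower and 27 higher. LincRNA genes leaned the other way, with 45 higher and 24 lower of 330, as did genes annotated as antisense with 41 higher and 9 lower of 268, for which the strand of the reads cannot be told.

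**Figure D1:**
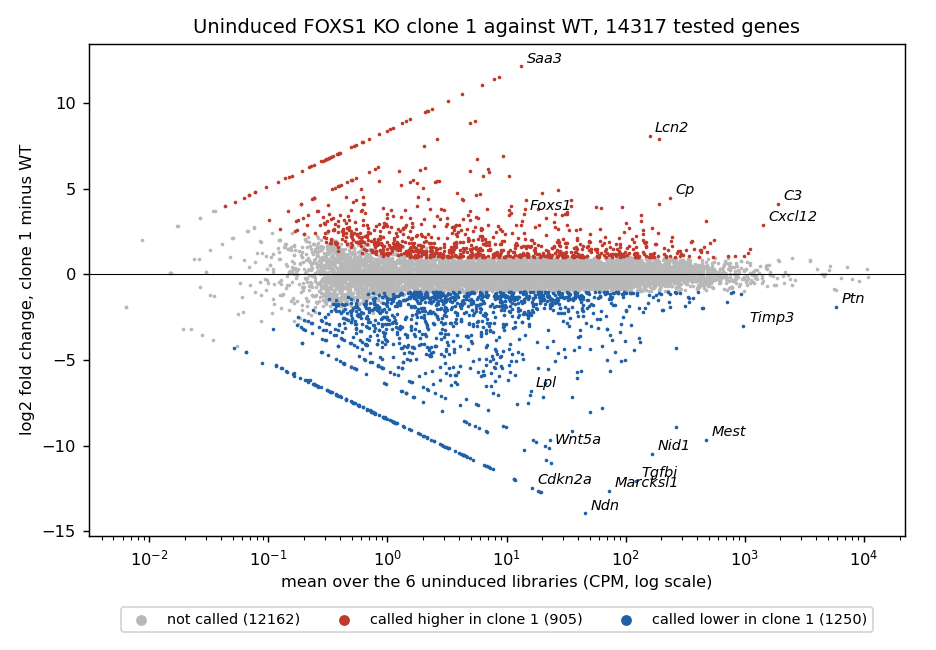
Each point is 1 of the 14317 tested genes, placed by its mean level over the 6 uninduced libraries (CPM, log scale) and its log2 fold change (clone 1 minus WT). The 905 genes called higher are red and the 1250 called lower are blue; the straight outer bands are genes with no or almost no counts in 1 group, whose fitted fold change depends on the prior count.

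The targeted gene was present in all libraries. Foxs1 (ENSMUSG00000074676, GRCm38 chr2:152931898-152933208, minus strand) measured 1.81, 3.25 and 1.64 CPM in WT and 26.7, 27.1 and 23.4 CPM in the libraries labelled FOXS1 KO clone 1. All 3 libraries labelled as KO were thus above all WT libraries, and Foxs1 RNA was 11.7-fold higher (log2 fold change 3.55, SE 0.16, adjusted p = 2.39e-17). Clone 2 gave 21.1, 22.9 and 23.9 CPM. Total counts on a gene do not show an edit within its exon, so the RNA level alone does not check the label. The study's methods describe sequencing of the locus and western blots of FOXS1 protein as checks of the clones, which are not analysed here, and the directions below follow the labels. Of the other tested genes within 100 kb, Dusp15, which encodes a phosphatase, was also higher at 6.97, 8.47 and 8.08 CPM in clone 1 against 0.291, 0.944 and 1.11 CPM in WT (log2 fold change 3.25, SE 0.28, adjusted p = 3.77e-11). Tpx2 and Pdrg1 were higher and passed the adjusted p threshold but stayed under the 2-fold threshold, with log2 fold changes of 0.54 and 0.32. Mylk2, at 1.20, did not pass the adjusted p threshold.

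The RefSeq windows before the transcription start (GRCm38.p6) of 4 genes are shown here because the CG content of these windows is described for higher and lower genes. The genes were picked after their values were seen, capitals mark CG dinucleotides, and the windows stop where the gene model of the count table begins. C3 and Saa3 rose, and Tgfbi and Marcksl1 were silent in clone 1. The windows lie at chr17:57228137-57228386 (minus strand), chr7:46715701-46715926 (minus strand), chr13:56609336-56609522 (plus strand) and chr4:129513331-129513580 (plus strand).
C3: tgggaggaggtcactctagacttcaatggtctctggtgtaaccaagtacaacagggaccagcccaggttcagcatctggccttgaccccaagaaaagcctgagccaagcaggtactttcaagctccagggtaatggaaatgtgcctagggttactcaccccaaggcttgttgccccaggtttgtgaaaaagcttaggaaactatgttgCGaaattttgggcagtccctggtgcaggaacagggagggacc
Saa3: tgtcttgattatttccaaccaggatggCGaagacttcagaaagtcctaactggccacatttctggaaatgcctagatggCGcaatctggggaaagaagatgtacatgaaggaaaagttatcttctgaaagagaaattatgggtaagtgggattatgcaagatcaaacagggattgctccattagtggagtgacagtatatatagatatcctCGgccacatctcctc
Tgfbi: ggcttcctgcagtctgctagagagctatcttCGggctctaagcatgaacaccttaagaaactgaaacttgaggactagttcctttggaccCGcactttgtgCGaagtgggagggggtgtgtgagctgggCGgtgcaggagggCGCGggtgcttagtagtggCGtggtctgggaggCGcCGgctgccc
Marcksl1: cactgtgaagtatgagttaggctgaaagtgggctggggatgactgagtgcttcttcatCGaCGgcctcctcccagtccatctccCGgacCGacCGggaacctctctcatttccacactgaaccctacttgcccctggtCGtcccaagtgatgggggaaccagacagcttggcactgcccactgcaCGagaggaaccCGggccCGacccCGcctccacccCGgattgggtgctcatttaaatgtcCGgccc
The C3 window holds 1 CG in 250 bases and the Saa3 window 3 in 226, against 9 in 187 for Tgfbi and 12 in 250 for Marcksl1. Over the 250 bases before the start, the median number of CG dinucleotides was 8 in 709 windows of 560 called higher genes, 12 in 1195 windows of 880 called lower genes and 15 in 12972 windows of all tested genes with an entry. The 62 windows of genes silent in clone 1 had a median of 13. The forkhead core TGTTTAC, searched on both strands in the whole 300 bases, was in 2.4% of the windows of higher genes, 2.43% of those of lower genes and 2.48% of all. The shorter forkhead core TAAACA was in 10.4%, 8.87% and 8.6%. The AP-1 motif TGANTCA was in 9.17% of the windows of higher genes, 5.27% of those of lower genes and 5.24% of all. The TEAD motif CATTCC was in 15%, 15.1% and 12.4%, and the SRF CArG box in 1.13%, 1.34% and 1.31%. A C/EBP motif (TTNNGNAAT) added after the data were seen was in 10.9%, 6.69% and 6.91%. An NF-κB motif, also added then, was in 0.705%, 0.418% and 0.424%. These NF-κB shares rest on only 5 windows of higher and 5 of lower genes. These shares describe the windows and were not tested.

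Acute phase and complement genes leaned upward. Of 28 tested members, 12 were higher, 1 was lower and 15 were not called, 46.4% called against 15.1% of all tested genes. The list had a median log2 fold change of 0.86 against -0.008 over all genes. C3, the central protein of the complement cascade, measured 222, 178 and 212 CPM in WT and 3445, 3908 and 3419 CPM in clone 1. Every clone 1 library lay far above every WT library, a 17.6-fold rise (log2 fold change 4.14, SE 0.11, adjusted p = 5.99e-14). Lcn2, a siderophore-binding protein of the innate response, measured 0.932, 0.786 and 1.56 CPM in WT and 331, 292 and 329.6 CPM in clone 1, and the groups lay far apart (log2 fold change 8.10, SE 0.12, adjusted p = 1.32e-24). Saa3, an acute phase apolipoprotein, had no count in WT and 29.1, 25.9 and 24.5 CPM in clone 1, at least 552-fold above the floor of 3 counts over the WT group. Cp, the copper oxidase ceruloplasmin, measured 25.04, 17.9 and 18.1 CPM in WT and 447, 433 and 462 CPM in clone 1 (log2 fold change 4.47, SE 0.082, adjusted p = 4.37e-25). Clone 2 held similar genes at high levels, with a mean of 2699.6 CPM for C3, 244 CPM for Lcn2, 16.4 CPM for Saa3 and 366 CPM for Cp, and none of the 4 passed the thresholds between the clones. The acute phase glycoprotein gene Orm1 went from 0, 0 and 0.0381 to 4.97, 5.42 and 5.13 CPM and the protease inhibitor gene Serpina3n from 5.53, 6.92 and 6.98 to 22.8, 16.5 and 20.9 CPM, but both belong to families of near-identical copies that can share reads, so their split between copies is uncertain. Serping1, the C1 inhibitor, was the member that fell, from 7.63, 6.29 and 7.204 to 0.102, 0.268 and 1.398 CPM.

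Chemokine and interleukin genes also leaned upward. Of 45 tested members 17 were higher, 6 lower and 22 not called, 51.1% called against 15.1% of all tested genes. Cxcl12, the ligand of CXCR4, measured 328, 329 and 339.7 CPM in WT and 2574, 2452 and 2476 CPM in clone 1 (log2 fold change 2.91, SE 0.044, adjusted p = 3.67e-29). Cxcl1, a neutrophil attractant, measured 5.999, 7.81 and 9.64 CPM in WT and 111, 126 and 109.6 CPM in clone 1 (log2 fold change 3.85, SE 0.12, adjusted p = 2.80e-17). Ccl2 and Ccl7, which attract monocytes and neighbour each other on chromosome 11, rose together. Ccl2 measured 16.02, 16.6 and 22.6 CPM in WT and 64.5, 60.5 and 67.9 CPM in clone 1. Ccl7 measured 1.69, 5.3999 and 6.63 CPM in WT and 60.3, 60.7 and 58.4 CPM in clone 1. Ccl5 measured 0.349, 0 and 0 CPM in WT and 11.6, 11.2 and 10.7 CPM in clone 1. In each of these genes the groups did not overlap. Ccl2, Ccl7 and Ccl5 were also higher in clone 1 than in clone 2, whose means were 23.5, 20.1 and 3.71 CPM. Il6 was not called, at 1.69, 1.52 and 1.83 CPM in WT and 2.66, 1.23 and 1.97 CPM in clone 1. Receptors were among the falls. Il13ra1, a subunit of the IL-13 receptor, went from 23.8, 25.7 and 22.9 to 0.0512, 0 and 0.311 CPM, Il1rl1, the IL-33 receptor, from 20.5, 19.5 and 30.2 to 3.79, 3.22 and 3.37 CPM, and the CXCL12 scavenging receptor gene Ackr3 from 84.3, 97.04 and 85.5 to 18.2, 17.97 and 19.6 CPM. Of 42 interferon-stimulated and antigen presentation genes 7 were higher and 1 lower, 19.05% called against 15.1% of all tested genes. Isg15, a ubiquitin-like protein induced by interferon, rose and measured 1.34, 1.73 and 2.13 CPM in WT and 8.45, 5.36 and 9.58 CPM in clone 1, while its mean was 0.243 CPM in clone 2. Psmb8, an immunoproteasome subunit, was the member that fell, at 4.25, 5.45 and 5.18 CPM in WT and 0, 0.0536 and 0.0518 CPM in clone 1. Counts of H2 class I genes are uncertain, since their copies can share reads. The blood and macrophage markers Cd14 and Lyz2 rose to means of 44.8 and 5.59 CPM, from 6.45 and 0.731 CPM. Of the 12 markers of that list 4 were tested, with a summed level of 4.83 to 9.80 CPM in WT and 49.7 to 53.8 CPM in clone 1, and Ptprc, Csf1r and Adgre1 did not pass the filter. Their part in the results above was not tested.

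**Figure D2:**
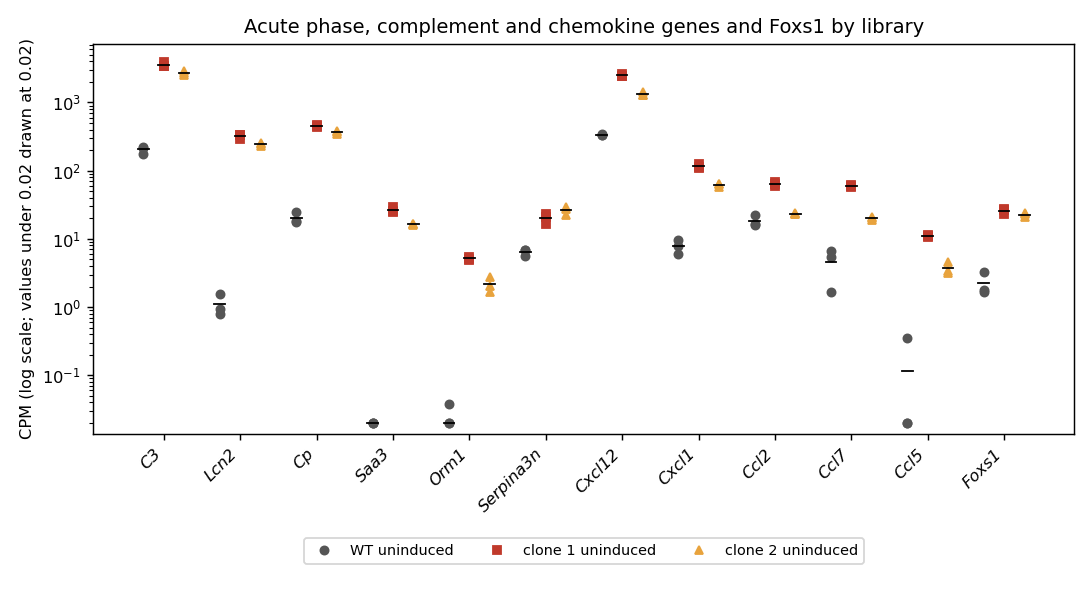
CPM (log scale) of 11 acute phase, complement and chemokine genes and of Foxs1 in each of the 3 libraries of uninduced WT, clone 1 and clone 2; points are libraries and black lines are group means. In all 12 genes the clone 1 libraries lie above the WT libraries.

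Silent genes made up the far end of the falls. Of 10181 genes that averaged 5 CPM or more in WT, 60 had 3 counts or fewer over the 3 clone 1 libraries together, and 33 of the 60 had none. The reverse held for 9 of 9976 genes with at least 5 CPM in clone 1. Without WT replicate 1 the numbers were 61 and 12. Of the 60 genes, 27 also had 3 counts or fewer in uninduced clone 2, and 8 averaged 5 CPM or more there. The same rule gave 56 genes silent in clone 2. Tgfbi, a matrix protein induced by TGF-β, measured 255.5, 251 and 232 CPM in WT and kept 3 counts in clone 1, a ratio of 4680 with an exact 95% counting interval of 1600 to 22700. Marcksl1, a membrane protein that binds actin, measured 146, 151 and 142 CPM in WT and kept 1 count, a ratio of 8390 with an interval of 1510 to 331000. Ndn, an imprinted growth suppressor, measured 82.5, 97.8 and 94.6 CPM in WT and had no count in clone 1, at least 1755-fold lower with 3 counts as the floor of the group. All 3 genes were thus well above the floor in every WT library. The guidance ligand Slit3 (48.98, 44.7 and 47.5 CPM in WT, 1 count in clone 1), Wnt5a (55.2, 41.4 and 40.8 CPM, 2 counts), the Wnt receptor gene Fzd9 (43.7, 44.8 and 40.4 CPM, 1 count), the endothelial lectin gene Clec14a (39.95, 40.8 and 45.7 CPM, 2 counts), the membrane protein gene Eva1b (40.4, 51.4 and 48.1 CPM, 3 counts) and the transcription factor gene Maf (33.95, 39.2 and 37.5 CPM, no count) followed. In uninduced clone 2, Slit3 had 2 counts, Eva1b 3 and Clec14a 5, and Wnt5a averaged 0.312 CPM. Fzd9 and Maf averaged 13.99 and 27.4 CPM there. Of 12 endothelial markers 4 were tested and 3 fell, with a summed level of 19.55 to 22.31 CPM in WT and 3.02 to 3.63 CPM in clone 1, and the part of such cells in these results was not tested. In bulk samples, fewer cells of a type and less RNA per cell cannot be told apart.

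Cdkn2a and Cdkn2b, which encode the inhibitors of cyclin dependent kinases p16 and p15 (and ARF from Cdkn2a), neighbour each other on chromosome 4 at 89274471 to 89294653 and 89306299 to 89311039. Cdkn2a measured 27.1, 35.6 and 36.1 CPM in WT and Cdkn2b 39.4, 40.7 and 37.4 CPM, and neither had a count in any uninduced library of clone 1 or clone 2. They were at least 631-fold and 750-fold lower in clone 1. Mtap, the nearest tested protein coding gene on the side of Cdkn2a, was not called and was present in all libraries, at 186, 187 and 205 CPM in WT and at 314, 314 and 310 CPM in clone 1. The same list of p53 targets and kinase inhibitors had 28 tested members, 2 higher and 3 lower, which is 17.9% called. In it Cdkn1a, the inhibitor p21, rose from 139.8, 124 and 113 to 287, 301 and 290.2 CPM (log2 fold change 1.22, SE 0.057, adjusted p = 3.00e-17). Of 56 cell cycle genes 5 were higher and 0 lower, 8.93% called against 15.1% of all tested genes. Their log2 fold change was positive in 45 of the 56, against 7057 of all 14317. Mki67, a marker of cycling cells, measured 14.7, 6.55 and 11.7 CPM in WT and 22.7, 30.9 and 21.2 CPM in clone 1, but without WT replicate 2 it was not called (log2 fold change 0.93). Top2a stayed under the 2-fold threshold at 40.5, 45.7 and 57.1 CPM in WT and 87.9, 94.6 and 94.9 CPM in clone 1, and passed it without WT replicate 3 (log2 fold change 1.10).

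Imprinted genes were lower or not called. Of 26 tested members 11 were lower and none was higher, against 8.73% lower and 6.32% higher of all tested genes. The median log2 fold change of the list was -0.071, with 12 members positive and 14 negative. Mest, a maternally imprinted gene of mesoderm, measured 967, 1030.3 and 861 CPM in WT and 0.871, 1.29 and 1.398 CPM in clone 1 (log2 fold change -9.65, SE 0.14, adjusted p = 2.29e-21), although an antisense gene, Copg2, overlaps 23.1% of its exonic bases. H19, an imprinted noncoding RNA of growth control, measured 17.1, 15.3 and 13.8 CPM in WT and had no count in clone 1, at least 295-fold lower. Rian, Meg3 and Dlk1 lie in 1 imprinted cluster on chromosome 12 and all fell. Rian, a noncoding RNA, went from 38.1, 34.4 and 33.2 CPM to 2 counts in all, and Meg3 and Dlk1, at 3.203, 4.25 and 3.39 and 1.92, 2.25 and 4.15 CPM in WT, had no count in clone 1. Peg3 measured 8.096, 6.87 and 7.24 CPM in WT and 0, 0.107 and 0.259 CPM in clone 1 and Plagl1 20.2, 17.4 and 16.2 CPM in WT and 0.41, 0.322 and 0.466 CPM in clone 1, both zinc finger factors. In clone 2 Rian had no count and H19 a mean of 0.325 CPM. The median log2 fold change against WT over Rian, Meg3 and Dlk1 was -9.286 in both clones. In clone 1 that median is the fitted value of Meg3, which had no count there. It depends on the prior count and is no measure of how alike the clones were. Clone 2 kept part of other imprinted transcripts, with means of 30.9 CPM for Ndn, 50.7 CPM for Mest and 11.9 CPM for Plagl1. Each of these 3 was lower in clone 1 than in clone 2 by the test between the clones.

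**Figure D3:**
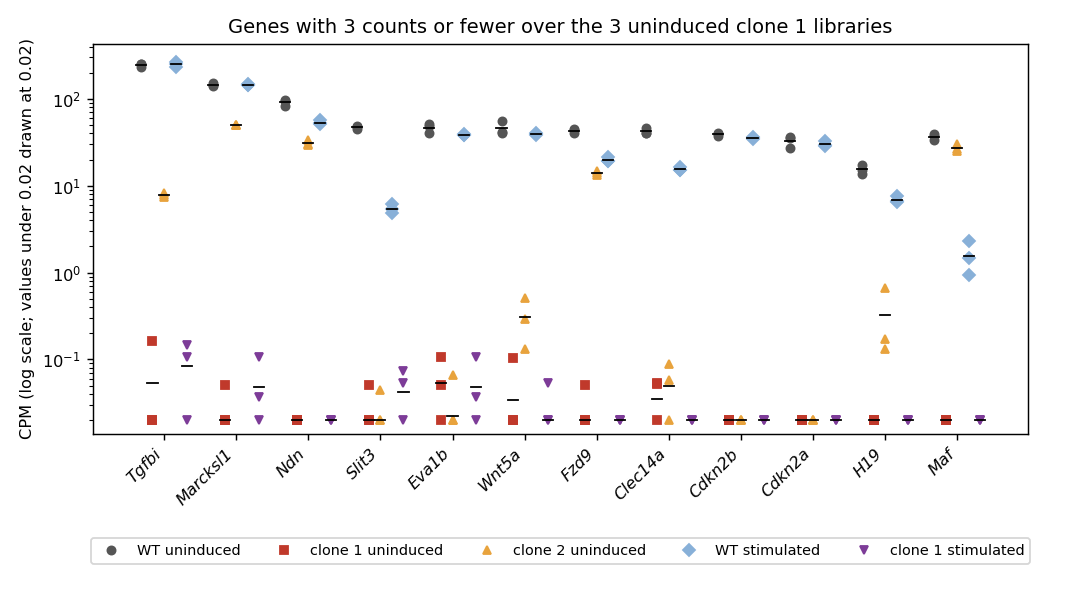
CPM (log scale, values under 0.02 drawn at 0.02) of 12 genes that had 3 counts or fewer over the uninduced clone 1 libraries, in the libraries of 5 groups; black lines are means. WT libraries lie far above clone 1 in both treatments, while clone 2 differs from gene to gene, from no count in Cdkn2a to 50.3 CPM in Marcksl1.

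Among the 9 genes silent in WT, Gpr149, an orphan receptor gene, St8sia4, a polysialyltransferase gene, and Ccdc85a had no count in WT or in uninduced clone 2. Gpr149 measured 14.7, 19.1 and 18.5 CPM in clone 1, St8sia4 17.1, 14.8 and 15.4 CPM and Ccdc85a 12.1, 11.96 and 13.2 CPM, at least 363-fold, 328-fold and 259-fold above the WT floor. All 3 were higher in clone 1 than in clone 2 by the test between the clones. Trpm3, a cation channel gene, was also higher in clone 1 than in clone 2. It measured 0.349, 0 and 0.686 CPM in WT and 20.2, 21.03 and 20.8 CPM in clone 1 and 0.116 CPM in clone 2. Aldh1a1, a retinaldehyde dehydrogenase gene, went from 0.815, 0 and 0 to 13.1, 11.2 and 13.05 CPM, and the cytochrome P450 gene Cyp3a13 from 1 count to 9.02, 10.9 and 9.79 CPM. Between the uninduced clones, 1241 genes were called (8.67% of those tested), 700 higher (4.89%) and 541 lower (3.78%) in clone 1.

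By number of genes called, matrix genes leaned to the lower side. Of 33 tested collagens 12 were lower and 1 higher, and of 52 matrix glycoproteins and proteoglycans 20 were lower and 7 higher. These are 39.4% and 51.9% called, against 15.1% of all tested genes. Summed levels did not fall. Collagens summed to 39510 to 42530 CPM in WT and 45360 to 45760 CPM in clone 1. The glycoprotein and proteoglycan sums overlapped, at 27240 to 29640 CPM in WT and 29010 to 29230 CPM in clone 1. The fibrillar collagens Col1a1 and Col3a1 did not pass the 2-fold threshold. Col1a1 measured 9601, 9571 and 9106 CPM in WT and 12235, 11419.5 and 12059.5 CPM in clone 1, and Col3a1 9147, 8821 and 8366 CPM in WT and 7119, 7404 and 7159 CPM in clone 1. Col15a1, Col18a1 and Col26a1 lay far lower. Col18a1, a basement membrane collagen, measured 234, 217 and 220.5 CPM in WT and 10.3, 10.03 and 10.6 CPM in clone 1 (log2 fold change -4.43, SE 0.078, adjusted p = 1.17e-27). Col15a1 went from 98.3, 104 and 96.97 to 0.615, 0.268 and 0.259 CPM, and Col26a1 from 30.9, 26.2 and 26.5 CPM to 1 count. Col4a1, the ubiquitous basement membrane collagen, was the member that rose (653, 596 and 642 CPM in WT and 1425, 1680.2 and 1441 CPM in clone 1). Nid1, which links laminin to collagen IV, measured 350.5, 329 and 319 CPM in WT and 0.154, 0.107 and 0.414 CPM in clone 1 (log2 fold change -10.49, SE 0.13, adjusted p = 1.06e-29), whereas its paralog Nid2 was not called at 1478, 1362 and 1319 CPM in WT and 1152, 1218 and 1121 CPM in clone 1. Clone 2 held Nid1 at 118 CPM. Lamb3, a laminin chain of epithelial basement membranes, and Itgb4, the integrin chain that binds such laminins, both rose. Itgb4 measured 20.1, 22.2 and 24.3 CPM in WT and 173, 179 and 183 CPM in clone 1 (log2 fold change 3.00, SE 0.078, adjusted p = 1.97e-23), and Lamb3 2.04, 0.419 and 1.37 CPM in WT and 18.9, 22.6 and 19.6 CPM in clone 1.

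Timp3, an inhibitor of matrix metalloproteinases, fell as well. It measured 1849.98, 1723 and 1642 CPM in WT and 215, 214 and 222 CPM in clone 1 (log2 fold change -3.00, SE 0.05, adjusted p = 4.40e-28), and 21.3% of its exonic bases overlap an antisense gene, Syn3. Ptn, a heparin-binding growth factor, measured 9344, 9223 and 9337 CPM in WT and 2404, 2688 and 2374 CPM in clone 1. Postn, a matricellular protein, went from 1109, 1065 and 1079 to 509.97, 537 and 521 CPM, and Ctgf, a target of YAP and TGF-β, from 30.2, 24.3 and 26.4 to 11.6, 11.9 and 10.6 CPM. Fn1 was not called (8069, 6199 and 6511 CPM in WT and 6044, 6108 and 5942 CPM in clone 1), and WT replicate 1 was the highest of its libraries. The small leucine-rich proteoglycans Prelp and Fmod are neighbours on chromosome 1 and rose. Prelp measured 99.2, 104 and 90.1 CPM in WT and 858, 841 and 874 CPM in clone 1 and Fmod 5.71, 7.81 and 7.47 CPM in WT and 35.5, 33.8 and 37.5 CPM in clone 1. Spp1, the bone and wound matrix protein osteopontin, rose from 133, 159 and 149 to 579, 552 and 594 CPM. Bone and cartilage genes were lower in 7 and higher in 2 of 20, 45% called against 15.1% of all tested genes. Acan, the cartilage proteoglycan, and Sox5 measured 10.1, 8.28 and 7.93 and 6.698, 5.56 and 4.35 CPM in WT and had no count in clone 1. The cartilage factor Sox9 was not called (475, 429 and 424 CPM in WT and 538, 544 and 542 CPM in clone 1), nor was the bone factor Runx2.

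Signaling genes of the Wnt pathway leaned furthest to the lower side among the lists with at least 20 tested members. Of 32 members 17 were lower and 2 higher, 59.4% called against 15.1% of all tested genes. The median log2 fold change of the list was -1.03, and without WT replicate 1 the number lower was 14. Besides Wnt5a and Fzd9, the receptor gene Fzd6 went from 6.58, 2.52 and 2.74 to 0, 0 and 0.104 CPM and the antagonist gene Dkk2 from 4.66, 4.299 and 3.32 to 0, 0.0536 and 0.155 CPM. Lef1, a nuclear effector, and Rspo3, a ligand that amplifies Wnt signals, were the members that rose. Rspo3 measured 54.98, 58.6 and 62.6 CPM in WT and 133, 132 and 126 CPM in clone 1, against a mean of 0.698 CPM in clone 2, and Lef1 4.37, 4.04 and 3.77 CPM in WT and 13.2, 13.2 and 15.02 CPM in clone 1. Rspo2 fell from 1098, 1103 and 1014 to 348, 359 and 350.4 CPM.

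Growth factor genes showed the same lean, with 12 lower and 3 higher of 36 tested PDGF, FGF and IGF genes. Of these, 41.7% were called, against 15.1% of all tested genes. Pdgfra, a receptor that marks adipocyte and fibroblast progenitors, measured 534, 515 and 502 CPM in WT and 171, 173 and 168 CPM in clone 1 (log2 fold change -1.60, SE 0.05, adjusted p = 1.62e-21), while Pdgfrb was not called (541, 509 and 501 CPM in WT and 573, 573 and 557 CPM in clone 1). Igf1 measured 164, 165 and 165 CPM in WT and 36.2, 38.9 and 41.8 CPM in clone 1 (log2 fold change -2.08, SE 0.081, adjusted p = 2.24e-18). The IGF-binding protein genes Igfbp4 and Igfbp5 fell further. Igfbp4 went from 175, 205 and 194 to 4.87, 5.74 and 7.405 CPM and Igfbp5 from 25.5, 27.3 and 26.6 to 0.768, 0.805 and 0.984 CPM, with Igfbp5 at a mean of 44.8 CPM in clone 2. Fgf7 and Fgf2 rose, Fgf7 from 81.6, 81.4 and 84.1 to 282, 278 and 274 CPM and Fgf2 from 12.1, 8.65 and 12.9 to 43.9, 40.3 and 41.7 CPM. Of 47 TGF-β and BMP pathway genes 3 were higher and 8 lower, 23.4% called against 15.1% of all tested genes. Tgfb1, Tgfb2, Smad3, Smad7 and Bmp4 did not pass the 2-fold threshold, with log2 fold changes of 0.91, -0.88, -0.63, -0.43 and -0.14, although Tgfb1 passed it without WT replicate 2 (log2 fold change 1.08). The BMP antagonist gene Grem1 went from 16.2, 17.2 and 17.3 to 3.28, 2.15 and 0.777 CPM, and the activin antagonist gene Fst rose from 26.8, 27.1 and 27.1 to 63.2, 56.7 and 59.96 CPM. In the Hedgehog list of 9 genes the effector Gli2 alone was called, falling from 28.8, 22.6 and 26.6 to 1.38, 0.858 and 0.828 CPM. Guidance genes were lower in 14 and higher in 6 of 50, 40% called against 15.1% of all tested genes. Robo1, a Slit receptor gene, was silent in clone 1, while Sema3c, Nrp2 and Ntn1 rose to means of 234, 288 and 223 CPM from 44.999, 43.5 and 55.2 CPM.

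Adipogenic transcription factors were lower in 9 and higher in 1 of 28 tested members before induction. Of this list 35.7% was called, against 15.1% of all tested genes. Pparg, the master regulator of adipocytes, measured 51.02, 49.2 and 48.1 CPM in WT and 38.8, 39.5 and 33.2 CPM in clone 1 and stayed under the 2-fold threshold (log2 fold change -0.41). Cebpa, Cebpb and Cebpd also stayed under it, at -0.60, 0.54 and 0.76. Klf9 and Klf15, glucocorticoid-responsive factors, went from 35.2, 37.1 and 38.8 to 10.7, 11.4 and 10.7 CPM and from 4.31, 3.09 and 3.74 to 0.871, 0.805 and 0.828 CPM, and Ebf2 from 3.79, 5.3999 and 3.74 to 0.717, 0.483 and 0.518 CPM. Ppargc1a, a coactivator of mitochondrial genes, was the member that rose (0.175, 0.262 and 0.343 CPM in WT and 6.56, 7.08 and 8.44 CPM in clone 1). Lipid storage genes were higher in 7 and lower in 3 of 33, which is 30.3% called. Lpl, the lipoprotein lipase, measured 33.4, 32.9 and 28.4 CPM in WT and 0.205, 0.215 and 0.414 CPM in clone 1 (log2 fold change -6.79, SE 0.29, adjusted p = 3.32e-18). G0s2, an inhibitor of lipolysis, and Plin4, a lipid droplet coat protein, rose, G0s2 to 105, 108 and 101 CPM from 17.6, 14.5 and 17.5 and Plin4 to 169, 201 and 176 CPM from 48.2, 36.4 and 43.6. Angptl4, an inhibitor of lipoprotein lipase, fell from 76.4, 72.9 and 80.5 to 1.13, 1.45 and 1.81 CPM. Sterol synthesis genes leaned upward, with 7 higher and 1 lower of 23 (34.8% called) and a median log2 fold change of 0.87. Sqle, an early enzyme of the sterol branch, measured 125, 119 and 126 CPM in WT and 336, 328 and 329 CPM in clone 1. Hmgcs1, an enzyme of the mevalonate pathway, measured 163, 167 and 153 CPM in WT and 378, 386 and 376 CPM in clone 1. In both genes the groups did not overlap.

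Contractile genes did not move together. Of 27 tested, 2 were higher and 3 lower, with a median log2 fold change of -0.03. That is 18.5% called, against 15.1% of all tested genes. Acta2, smooth muscle actin, was not called at 253, 292 and 276 CPM in WT and 415, 414 and 426 CPM in clone 1 (log2 fold change 0.61). Myl9, the regulatory myosin light chain, measured 38.9, 36.8 and 44.4 CPM in WT and 0.307, 0.161 and 0.362 CPM in clone 1 (log2 fold change -7.14, SE 0.21, adjusted p = 7.81e-21), while Mylk, the kinase that acts on such chains, measured 13.6, 10.2 and 10.7 CPM in WT and 42.2, 46.4 and 41.4 CPM in clone 1. Of 24 tested forkhead genes 3 were lower, and Foxs1 was the one that was higher. That is 16.7% called, near the share of all tested genes. Foxc2 measured 60.5, 56.7 and 56.3 CPM in WT and 20.2, 23.2 and 25.3 CPM in clone 1, Foxf1 21.03, 21.4 and 20.5 CPM in WT and 9.63, 5.85 and 5.75 CPM in clone 1 and Foxd2 17.3, 17.6 and 15.5 CPM in WT and 5.53, 4.29 and 5.903 CPM in clone 1. Foxc1 was not called (194, 204 and 199 CPM in WT and 168, 185 and 175 CPM in clone 1). Mesenchyme transcription factors of limb, body wall and head were lower in 12 and higher in 2 of 38. Of these, 36.8% were called, against 15.1% of all tested genes. Prrx1 and Twist1 were not called, at log2 fold changes of -0.65 and -0.38. None of 89 oxidative phosphorylation genes was called, and of 83 cytosolic ribosomal protein genes 2 were lower.

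**Figure D4:**
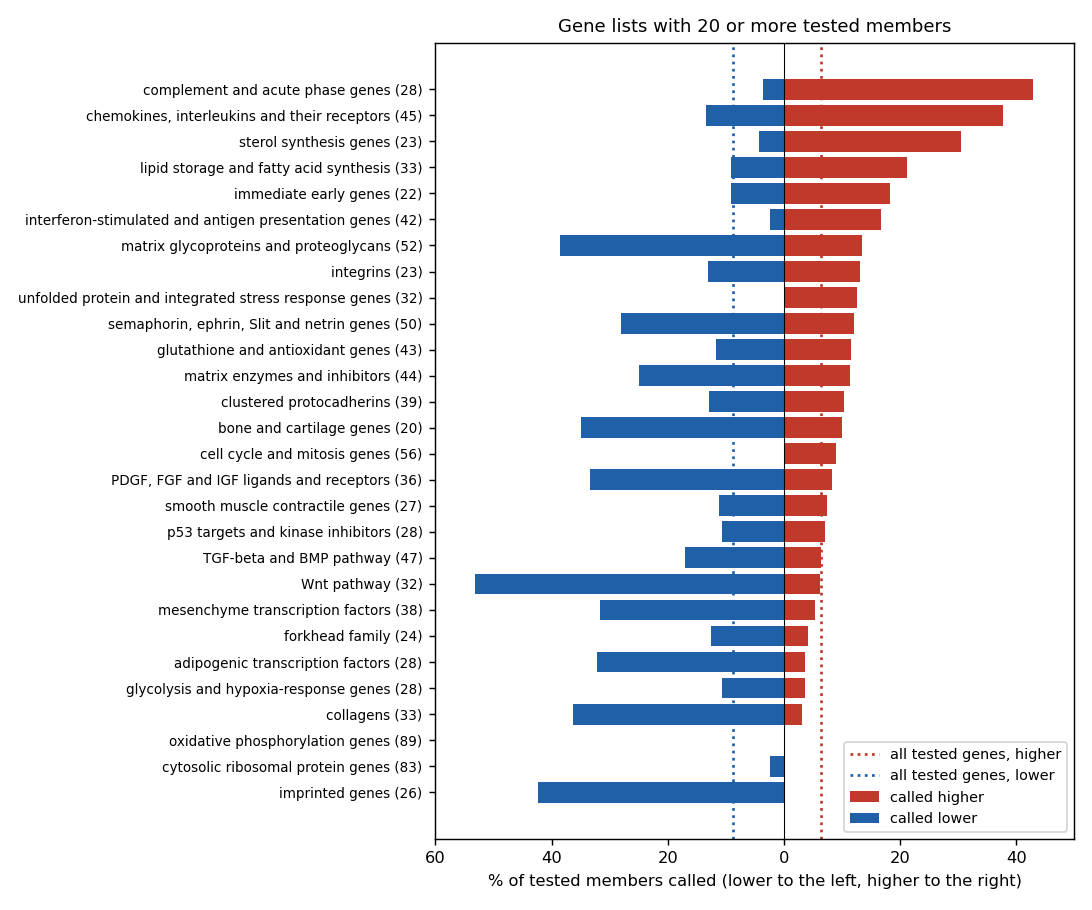
Percent of the tested members of each gene list called lower (left, blue) and higher (right, red) in uninduced clone 1, for lists with 20 or more tested members (number in brackets); dotted lines mark all tested genes, 8.73% lower and 6.32% higher. Complement and acute phase genes reach furthest to the right and the Wnt pathway furthest to the left.

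Differences followed chromosomes in part. Over 10149 genes that averaged 5 CPM or more the median log2 fold change was 0.007, but it was 0.458 over 406 genes of chromosome 15 and -0.413 over 524 genes of chromosome 10. On chromosome 15, 86.95% of the genes had a positive value and 11.1% were called higher, against 4.07% on all chromosomes. On chromosome 10, 10.9% were called lower, against 5.14%. The shift did not span chromosome 10. In its 10 Mb bins with at least 20 such genes, medians lay between -0.101 and 0.114 up to 60 Mb. Beyond 60 Mb they lay between -0.544 and -0.465. The end of chromosome 11 also stood out, with a median of 0.729 over 91 genes between 110 and 120 Mb and 0.751 over 43 genes beyond 120 Mb, while the whole chromosome had 0.075. Clone 2 minus WT had 0.502 and 0.572 over these 2 stretches. On the X chromosome 25 genes between 130 and 140 Mb had a median of -0.951, against 0.138 for clone 2 minus WT. Without WT replicate 1 or any other of the 6 libraries, the median of chromosome 15 stayed between 0.451 and 0.467 and that of chromosome 10 between -0.436 and -0.404. In stimulated clone 1 against stimulated WT the medians were 0.449 and -0.456. Clone 2 against the same uninduced WT had 0.450 on chromosome 15 and 0.061 on chromosome 10. Within chromosome 10 the clone 2 medians of the same bins lay between 0.328 and 0.573 up to 60 Mb. Beyond 60 Mb they lay between -0.197 and -0.006. The number of copies of these chromosomes was not measured.

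**Figure D5:**
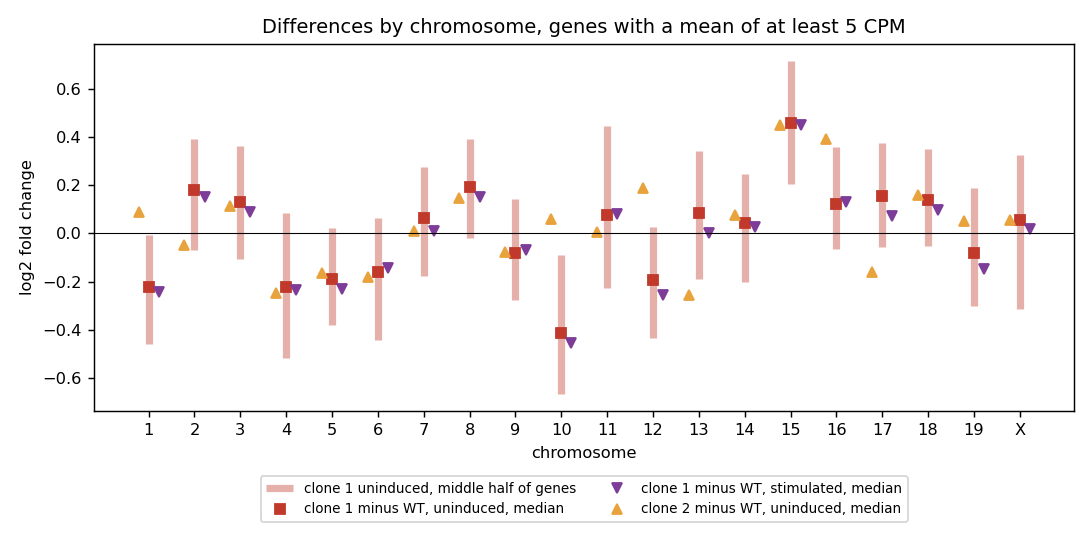
Median log2 fold change by chromosome for genes averaging 5 CPM or more: clone 1 minus WT uninduced (squares, with bars from the first to the third quartile of the genes), stimulated (inverted triangles) and clone 2 minus WT uninduced (triangles). Chromosome 15 lies highest in clone 1 at 0.458 and chromosome 10 lowest at -0.413.

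Neighbouring genes were also called in runs. The longest held 10 genes from Serpina6 to Serpina3n on chromosome 12 (GRCm38 chr12:103646630-104414329), all higher with a median log2 fold change of 6.07. Most of them are copies of Serpina3, so the split of reads among them is uncertain. A run of 6 genes on chromosome 1 (chr1:193175453-193370298) held Lamb3, G0s2 and Hsd11b1, the enzyme that activates glucocorticoids, with a median of 3.12. On chromosome 6, 6 genes from Creb5 to Fkbp14 were lower with a median of -2.17. The Armcx genes Armcx1, Armcx3, Armcx4 and Armcx6 on the X chromosome were lower as a run of 4, with a median of -1.82 against -0.175 in clone 2.

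The same genotype contrast in stimulated cells used 6 other libraries. There 1348 genes were higher (9.42% of those tested) and 1374 lower (9.6%) in clone 1 than in WT, 19% together. Of the 905 higher genes of uninduced clone 1, 531 were also higher in stimulated clone 1, which is 58.7% of the uninduced and 39.4% of the stimulated list. Of the 1250 lower genes 833 were also lower, 66.6% and 60.6% of the lists. Opposite calls were made for 28 and 21 genes. Of 34 genes silent in uninduced clone 1 that stimulated WT expressed at 5 CPM or more, 29 had 3 counts or fewer in stimulated clone 1 as well. A set of 24 genes held the 12 largest rises and the 12 largest falls among called genes with a gene symbol (no Gm or Rik names), a mean of at least 5 CPM over the 6 uninduced libraries and no overlap between groups. In this set the difference between clone 1 and WT itself changed with stimulation in 2, Tmem176a and Dusp18, where the same test called 8.81% of all genes. These 24 genes were chosen by the uninduced libraries that enter this test. The 12 falls had 3 counts or fewer in uninduced clone 1, so a change of their difference can hardly be estimated. With stimulation, WT means went from 38.4 to 0.38 CPM in Fibcd1 and from 36.9 to 1.57 CPM in Maf. Neither had a count in clone 1 in either treatment, and neither was called. The 2 of 24 is thus no measure of how stable the differences were.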

How the data were processed

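Poly(A) RNA of 10T1/2 cells was sequenced in 18 libraries, 3 per group. The authors aligned the reads to the mouse genome mm10 (GRCm38) with HISAT2 and deposited raw read counts per gene. How reads were counted, with which annotation and on which strand, is not given in the sources used here, so reads of genes that overlap on opposite strands or have near-identical copies may be split wrongly. From the counts, levels were computed as CPM after TMM scaling. Genes were kept by filterByExpr (minimum count 10), and edgeR's quasi-likelihood test was fitted over all 6 groups with Benjamini-Hochberg adjustment over 14317 genes. Genes were called at adjusted p below 0.05 and a fold above 2. In simulated data with the same depth, 83.9% of 285 genes changed by 1.5 on the log2 scale and 94.0% of 299 changed by 2.5 were called. The simulation gave each gene the same spread in all libraries, and apart from the changed genes the same mean in all groups. It did not model the wider spread of the WT libraries or as many changed genes as here. These shares may therefore not hold for this comparison. A group without a count was set to a floor of 3 counts over its 3 libraries for a lower bound on a fold, and intervals of ratios with 1 to 3 counts are exact binomial ones at 95%, which cover counting error only.

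The comparison, gene lists and named genes were chosen with earlier results of these data known. Genes were named as Foxs1 and its neighbours within 100 kb, the 12 largest rises and 12 largest falls among called genes that averaged 5 CPM or more over the 6 libraries and had no overlap between groups, the 6 called genes each way with the largest difference in mean CPM, genes of at least 5 CPM in 1 group and at most 3 counts in the other, key list genes, up to 4 called members of each list and direction, and the ends of runs. Gene models with Gm or Rik names were counted and not named. Genes named as neighbours of Cdkn2a and within runs were chosen after their values were seen. Promoter windows came from RefSeq, and those on chromosome 18 were left out of the motif counts. Replicate numbers were checked for pairing. Deviations from the group means of WT and clone 1 libraries with the same number correlated at -0.00422, -0.0205 and -0.0253, so the numbers were not taken as pairs. Alternatives were DESeq2, its size factors, other filters, no fold threshold, glmTreat, a fit of the compared groups only, a replicate block and leaving out each library.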

Additional observations from a re-analysis of the deposited data

Results flagged for a closer look

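Tmem176a, a membrane protein gene of immune cells, differed between clone 1 and WT by more after stimulation than before it. Uninduced WT libraries measured 0.932, 1.99 and 1.98 CPM and clone 1 libraries 53.1, 53.3 and 51.004 CPM, while stimulated WT measured 0.196, 0.0864 and 0.135 CPM and stimulated clone 1 52.98, 50.04 and 46.9 CPM. Clone 1 levels overlapped between treatments and WT levels did not. The log2 difference between clone 1 and WT was 3.5 larger after stimulation (SE 0.356, adjusted p = 3.13e-09, edgeR). In stimulated WT 1 count equals 0.0432 to 0.0489 CPM, so its values rest on a few counts and the size of this change is imprecise.

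Dusp18, a phosphatase gene, had no count in uninduced clone 1 and 9 counts in stimulated clone 1. Its fitted log2 difference was 5.64 larger after stimulation, a value that depends on the prior count and is no measure of size.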

How the results depend on the processing

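Without the fold threshold 7657 genes were called in uninduced clone 1 (3761 higher, 3896 lower), 790 list members, 8436 genes in stimulated clone 1 and 6039 between the clones, and 2418 higher and 2658 lower genes were shared with stimulated clone 1. Under glmTreat, which tests against the fold, the counts were 1278 (456 higher, 822 lower), 1714 and 542, with 289 higher genes shared. DESeq2 called 2291 genes. In the set of 24 genes chosen by size of change, mean level and no overlap, the effect changed with stimulation in 5 under DESeq2, in 4 with no filter on low counts and in 2 to 4 when 1 library was left out, with 4 without WT replicate 3. Leaving out 1 library gave 2124 to 2351 genes in uninduced clone 1. Limits added after the data were seen gave 33 genes silent in clone 1 when no count was allowed, 155 at 1 CPM and 34 at 10 CPM, and 38 and 5 genes silent in WT at 1 and 10 CPM. The replicate block gave 2130 genes (904 higher, 1226 lower). Of 335 called genes among the named ones, 287 were called whichever library was left out, and none changed direction in these alternatives. Depth limits statements on genes under the floor of 0.048 CPM in WT and 0.0522 CPM in clone 1.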

Other observations

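Other gene groups were smaller in their differences or mixed in direction, read against 6.32% of all tested genes higher and 8.73% lower. Of 44 matrix enzymes and inhibitors 5 were higher and 11 lower, and of 23 integrins 3 were higher and 3 lower. Unfolded protein and integrated stress response genes had 4 higher and 0 lower of 32. Immediate early genes, which answer to serum and stress, had 4 higher and 2 lower of 22, glycolysis and hypoxia genes 1 and 3 of 28, and glutathione and antioxidant genes 5 and 5 of 43. Of 39 clustered protocadherins, whose exons are shared between members, 4 were higher and 5 lower. Hox genes had 1 higher and 1 lower of 10, Notch genes 2 and 2 of 14, cadherins 0 and 2 of 10, skeletal muscle genes 2 and 2 of 9, and adipokines 1 and 1 of 7. Of 8 tested mural cell markers, a list that holds Foxs1, 2 were higher and 2 lower, and of 6 neural and glial markers 0 were higher and 1 was lower.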
